A study of Mus musculus with 4 samples.

Results

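The transcription factor p53 switches on, besides the genes that halt the cell cycle, a group of genes that promote cell death, and the 10 of these examined here were Bax, Bbc3, Pmaip1, Apaf1, Fas, Tnfrsf10b, Pidd1, Perp, Aen and Cdip1. They were chosen by name as apoptotic effectors induced by p53, and 10 of 10 had a row among the 20065 genes of the deposited expression table. Earlier results of these data were known when they were chosen, so the counts of members below describe the list and do not test it. The measurements were RNA-seq read counts in cultured satellite cells, the muscle stem cells (MuSC) that lie beside the myofibre and carry its regeneration, with 2 control and 2 Prmt5sKO libraries. Prmt5 is an arginine methyltransferase. Prmt5sKO cells came from Pax7CreERT2/Prmt5loxP/loxP (+TAM) animals and control cells from Pax7CreERT2/Prmt5+/loxP (+TAM) animals, all adult and on the C57BL/6 background, from limb and trunk muscles. All libraries thus shared the Pax7CreERT2 driver, tamoxifen (TAM) and at least 1 floxed Prmt5 allele, and the group given as wild type was heterozygous for that allele. The Cre recombinase is driven by Pax7, and the cells were purified by FACS before culture. The study's text describes treatment of the cultured cells with the tamoxifen metabolite 4-OH, while the labels give TAM without a route. Nothing in the labels says that the 2 libraries of a group were separate animals or cultures. Their Xist and Y-linked RNA, given below, differed within each group as between female and male cells, so the spread that the p-values measure was not between repeats of 1 RNA sample.

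Cell death by the mitochondrial route begins when BH3-only proteins such as those made from Bbc3 (Puma) and Pmaip1 (Noxa) neutralise the protective Bcl2 proteins and let Bax open the outer mitochondrial membrane. Cytochrome c then assembles with the Apaf1 protein into the apoptosome, which activates a caspase. Death by the extrinsic route starts at receptors on the cell surface, among them those encoded by Fas and Tnfrsf10b, and p53 can feed both routes. These genes are best known from the response of dividing cells to DNA damage and other stress.

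Promoter windows from RefSeq, on GRCm38.p6 and reaching from 250 bases before to 50 bases after an annotated transcription start, were held for 7 of the 10 genes. Pmaip1, Tnfrsf10b and Perp had no entry. The consensus of the p53 half-site, which is its own reverse complement and so was read on both strands at once, matched in 3 of the 11 windows of these genes, namely in the window of Bax and in both windows of Aen, which share that stretch. It matched in 8.36% of all 32851 windows. The GC-box letters GGGCGG, on either strand and free to overlap the half-site, matched in 9 of the 11 windows and in 35.7% of all windows. Below are the windows of Fas and Pidd1, whose Prmt5sKO counts lay above both control counts, and those of Bax and Aen, whose counts overlapped between the groups. These windows were picked by their counts, and Bbc3, whose counts also overlapped, had no half-site match. Bases outside the windows were not searched, and Pmaip1 and Perp had no window. The matches thus do not show which of the 10 genes p53 binds, and a link between match and change was not tested. In Bax and Aen capitals mark the half-site match, and in Fas and Pidd1 they mark the GC-box letters. The Fas window lies on the plus strand at chr19:34290409-34290708, that of Pidd1 on the minus strand at chr7:141443976-141444275, that of Bax on the minus strand at chr7:45466849-45467148 and that of Aen on the plus strand at chr7:78895677-78895976. The match began 201 bases before the start of Bax and 10 bases after the start of Aen.
Fas: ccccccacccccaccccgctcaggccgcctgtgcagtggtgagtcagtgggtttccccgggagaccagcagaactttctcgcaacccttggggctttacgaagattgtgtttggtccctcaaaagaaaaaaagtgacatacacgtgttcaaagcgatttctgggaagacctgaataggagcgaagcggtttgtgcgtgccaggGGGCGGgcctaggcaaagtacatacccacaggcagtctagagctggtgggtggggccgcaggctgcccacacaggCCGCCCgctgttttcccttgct
Pidd1: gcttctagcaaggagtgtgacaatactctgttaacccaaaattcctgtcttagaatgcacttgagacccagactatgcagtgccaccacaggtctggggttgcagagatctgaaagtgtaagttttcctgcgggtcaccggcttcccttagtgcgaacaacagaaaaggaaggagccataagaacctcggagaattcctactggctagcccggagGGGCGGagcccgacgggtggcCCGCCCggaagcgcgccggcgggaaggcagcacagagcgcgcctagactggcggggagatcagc
Bax: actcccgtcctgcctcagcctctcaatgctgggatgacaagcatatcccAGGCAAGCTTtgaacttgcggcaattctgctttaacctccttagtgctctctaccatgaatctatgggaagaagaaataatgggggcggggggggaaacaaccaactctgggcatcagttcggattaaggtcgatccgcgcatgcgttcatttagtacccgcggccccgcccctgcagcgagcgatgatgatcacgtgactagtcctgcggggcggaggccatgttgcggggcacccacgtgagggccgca
Aen: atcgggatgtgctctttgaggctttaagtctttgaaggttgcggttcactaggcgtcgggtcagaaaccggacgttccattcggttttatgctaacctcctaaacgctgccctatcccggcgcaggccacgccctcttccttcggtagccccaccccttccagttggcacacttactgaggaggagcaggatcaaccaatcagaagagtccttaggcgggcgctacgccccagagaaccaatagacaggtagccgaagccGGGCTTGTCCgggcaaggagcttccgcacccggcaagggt

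The groups separated on the deleted gene. Prmt5 had normalized counts of 2273 (deeper) and 2906 (shallower library) in control against 244 and 202 in Prmt5sKO MuSC, a log2 fold change of -3.52 ± 0.27 (SE). Libraries are named here by their depth within a group, which ran from 13240754 to 20047430 recovered reads, because the table carried no replicate numbers, and each pair of values below gives the deeper library first. A normalized count is a read count scaled by the trimmed mean of M-values (TMM). Lars2 took 1.80% and 2.60% of the reads in control against 0.738% and 0.705% in Prmt5sKO MuSC. The libraries within a group were not alike. Xist, the RNA of the inactive X chromosome, had 8668 and 5655 normalized counts in the deeper control and the shallower Prmt5sKO library and 23.3 and 8.15 in the shallower control and the deeper Prmt5sKO library, and the Y-linked genes Ddx3y, Uty and Kdm5d had 0 reads in the former pair. The shallower Prmt5sKO library held far more RNA of muscle differentiation genes, with a summed level of 36155 CPM (counts scaled to a common library size) over 26 genes. The sum was 5773 in the deeper Prmt5sKO library and 5480 and 8042 in the controls. Of the 26, 22 were higher in both Prmt5sKO libraries, against 25.2% of all genes tested. Myog, a driver of that programme, had 1436 and 1189 normalized counts in control against 3707 and 19508 in Prmt5sKO MuSC. Pax7, which defines satellite cells, had 3079 and 3002 normalized counts in control against 3664 and 2570 in Prmt5sKO MuSC. Markers of satellite cells and myoblasts summed to between 3387 and 5384 CPM. Of the markers of other cell types, 4 tested haematopoietic genes summed to between 4.22 and 8.92 CPM and the endothelial genes to between 7.36 and 12.8 CPM in the 4 libraries, whereas 9 fibroblast and fibro-adipogenic genes summed to between 408 and 1080 CPM. Nearly all of this was Col3a1, and the other 8 genes summed to between 31.5 and 66.0 CPM, with Lum at 0 reads in 3 of the 4 libraries. Of 18 S-phase and mitosis genes, 17 were lower in both Prmt5sKO libraries, against 23.6% of all genes tested. The part of these differences in the results below was not tested.

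Of the 10 death genes, 4 had fitted counts at least 2-fold higher in Prmt5sKO MuSC, namely Fas, Perp, Pmaip1 and Pidd1, and 7 had both Prmt5sKO libraries above both control libraries. Bax, the executioner at the mitochondrion, and Aen, a p53-induced nuclease, overlapped between the groups. In these bulk cultures, a change in the share of cells that express a gene cannot be told apart from a change in RNA per cell. The 10 genes ran from a log2 fold change of -0.18 for Bax to 3.27 for Fas, with a median of 0.64 against 0.02 over the 16212 genes tested. None of the 10 passed an adjusted p of 0.05 in limma-voom with Benjamini-Hochberg adjustment over all tested genes. The called share of all genes was also 0%. The smallest adjusted p of any gene there, 0.193, was that of Prmt5, so this fit did not call even the deleted gene. The absence of calls therefore says nothing about the 10 genes in particular. The study, which used DESeq2, did report up- and downregulated genes at a false discovery rate under 0.05. At an unadjusted p under 0.05, 4 of the 10 (Pmaip1, Fas, Pidd1 and Perp) were higher and 0 lower, against 6.01% of all genes higher and 6.95% lower. Without the shallower control library 2 of the 10 were at that level, against 1.51% of all genes. Without the deeper Prmt5sKO library 489 of all tested genes were called, without the shallower Prmt5sKO library 55, and with a replicate block that pairs deeper with shallower libraries 346, with 0 of the 10 among them each time. That block pairs the libraries that are alike in Xist and Y-linked RNA. In it 5 of the 10 genes were higher at an unadjusted p under 0.05, against 10.6% of all genes, and the adjusted p in limma-voom were 0.0648 for Fas, 0.0788 for Pmaip1 and 0.0957 for Pidd1. The count of 7 of 10 with both Prmt5sKO libraries above both controls stood against 25.2% of all genes, and 0 of the 10 had the opposite order, against 23.6% of all genes. The count of 4 of 10 at a fold of at least 2 stood against 12.8% of all genes, and it fell to 2, Fas and Pmaip1, against 4.86% of all genes, in limma-trend with a pseudocount of 2. With 2 libraries against 2, an exact permutation test of a single gene cannot go below a two-sided p of 0.333.

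**Figure D1:**
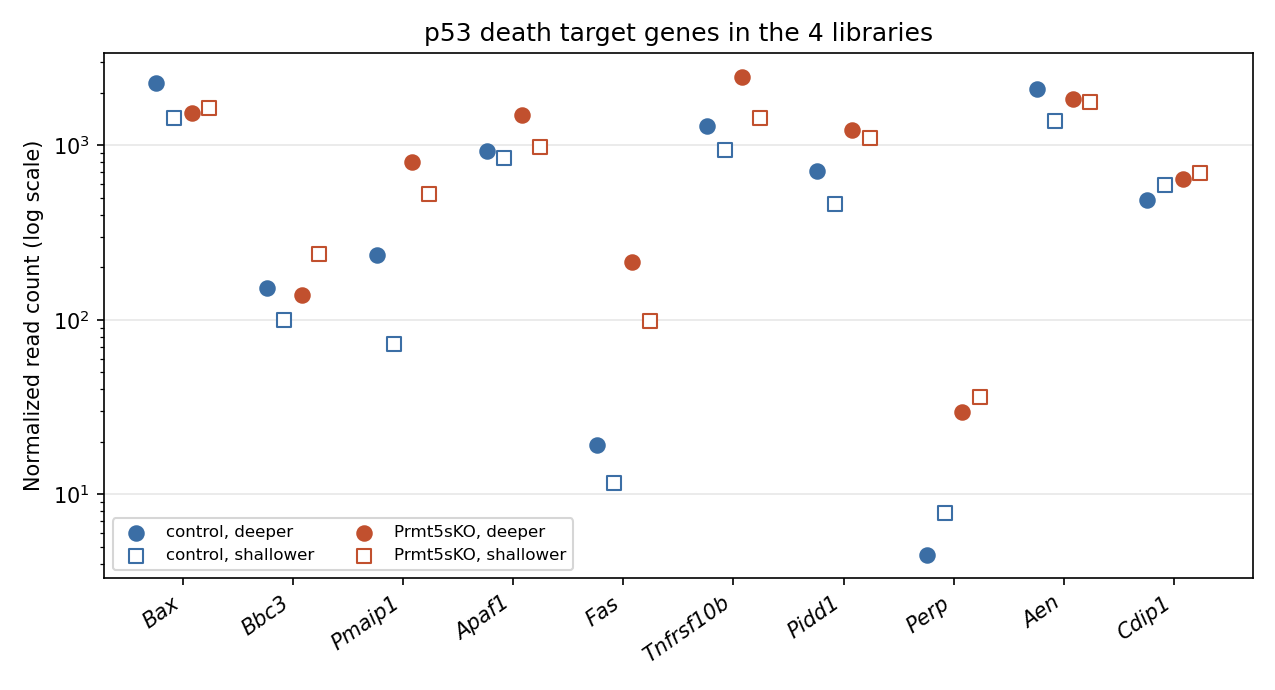
Normalized read counts (log axis) of the 10 p53 death genes in the 2 control and 2 Prmt5sKO libraries, 1 point per library. Fas, Perp, Pmaip1 and Pidd1 have both Prmt5sKO points well above both control points, while the points of Bax, Bbc3 and Aen overlap.

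Among the genes of the mitochondrial route, Pmaip1 showed the widest gap. Normalized counts of 235 and 72.6 in control stood against 802 and 525 in Prmt5sKO MuSC. The control libraries differed 3.24-fold from each other, and the lower Prmt5sKO library still lay 2.23-fold above the higher control library. The difference was 2.28 ± 0.55 (SE, 95% interval 0.93 to 3.63) on the log2 scale, a fold of 4.85, with an unadjusted p of 0.00603 in the limma-voom fit. Adjusted over all genes, this p became 0.259. Without the shallower control library the log2 fold change was 1.48, and without the deeper control library it was 3.15.

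Bbc3, which encodes the other BH3-only protein of the group, did not separate. Control MuSC had 151 and 99.9 normalized counts and Prmt5sKO MuSC 139 and 238. The deeper Prmt5sKO library thus lay between the 2 controls, and only the shallower one exceeded both. The log2 fold change of 0.51 had a 95% interval from -0.58 to 1.60, so a 2-fold increase was neither shown nor outside the interval.

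Bax had 2264 and 1436 normalized counts in control against 1538 and 1639 in Prmt5sKO MuSC. Both Prmt5sKO values fell between the control values, and the log2 fold change was -0.18 ± 0.27 (SE, 95% interval -0.84 to 0.47). An increase of Bax RNA by 2-fold therefore lay outside the interval. The annotated exons of Bax share 192 bases, 12.2% of their length, with the same-strand gene model Gm45808, so some reads could belong to either.

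Apaf1 had 923 and 844 normalized counts in control against 1492 and 973 in Prmt5sKO MuSC. Its groups did not overlap, but the lower Prmt5sKO library was only 1.05-fold above the higher control library and the deeper Prmt5sKO library stood alone. On the log2 scale the difference was 0.45 ± 0.27 (SE), with an adjusted p of 0.506 in limma-voom.

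Of the death receptors, Fas had the largest fold of the 10 genes and a very low starting level. The gene (chr19:34290666-34327772, GRCm38, plus strand) had 17 and 9 reads in control against 291 and 98 in Prmt5sKO MuSC, which are 19.2 and 11.7 against 216 and 98.6 normalized counts. Both Prmt5sKO libraries were at least 5.13-fold above the higher control, although they differed 2.19-fold from each other. The log2 fold change was 3.27 ± 0.86 (SE, 95% interval 1.18 to 5.37), the unadjusted p in the limma-voom fit was 0.00866, and the adjusted p was 0.276. Limma-trend with a pseudocount of 2 gave a smaller log2 fold change of 1.92, and leaving out the deeper Prmt5sKO library gave 2.65. It ranked 152 among the 16212 genes by the size of an increase.

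Tnfrsf10b, the mouse death receptor for the ligand Trail, was far more abundant, with 1282 and 935 normalized counts in control against 2466 and 1432 in Prmt5sKO MuSC. The groups did not overlap, but the shallower Prmt5sKO library was only 1.12-fold above the deeper control. A log2 fold change of 0.78 ± 0.33 (SE, 95% interval -0.02 to 1.57) went with an adjusted p of 0.391 in limma-voom.

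Pidd1 (chr7:141438113-141444025, GRCm38, minus strand) encodes the scaffold of the PIDDosome, a complex that activates caspase-2. It had 709 and 459 normalized counts in control against 1222 and 1098 in Prmt5sKO MuSC. The lower Prmt5sKO library was 1.55-fold above the higher control library, and the Prmt5sKO libraries differed 1.11-fold from each other. Its log2 fold change was 1.01 ± 0.27 (SE, 95% interval 0.35 to 1.68), close to a doubling, with an unadjusted p of 0.00965 and an adjusted p of 0.276 in limma-voom. Of the other parts of that complex, Casp2 had 704 and 686 normalized counts in control against 519 and 490 in Prmt5sKO MuSC, and Cradd, which links scaffold and caspase, had 54.2 and 54.5 against 32.6 and 31.2.

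Perp (chr10:18845020-18857073, GRCm38), a membrane protein of p53-dependent death that is better known from desmosomes of epithelia, was the rarest gene. It had 4 and 6 reads in control against 40 and 36 in Prmt5sKO MuSC, or 4.52 and 7.78 against 29.6 and 36.2 normalized counts. The Prmt5sKO libraries were alike and lay at least 3.81-fold above the higher control. The log2 fold change was 2.34 ± 0.85 (SE, 95% interval 0.27 to 4.41), with an unadjusted p of 0.0324 in the limma-voom fit. Limma-trend gave 1.53 with a pseudocount of 0.5 and 0.76 with a pseudocount of 2. The counts are so low that this gene was the single member lost when a mean of at least 20 normalized counts was required.

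Aen, an exonuclease that p53 induces and that takes part in DNA breakdown during death, had 2103 and 1386 normalized counts in control against 1836 and 1771 in Prmt5sKO MuSC. Both Prmt5sKO values lay between the controls. Its log2 fold change of 0.08 had a 95% interval from -0.55 to 0.71, so a doubling lay outside it.

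Cdip1, a p53 target linked to death receptor signalling, had 486 and 594 normalized counts in control against 639 and 698 in Prmt5sKO MuSC. The groups just separated, by a factor of 1.08 between the nearest libraries, and the log2 fold change was 0.32 ± 0.23 (SE), with an adjusted p of 0.578 in limma-voom. Its exons share 892 bases, 8.84% of their length, with the opposite-strand gene Hmox2, and the strand setting of the counting was not given in the sources used here.

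**Figure D2:**
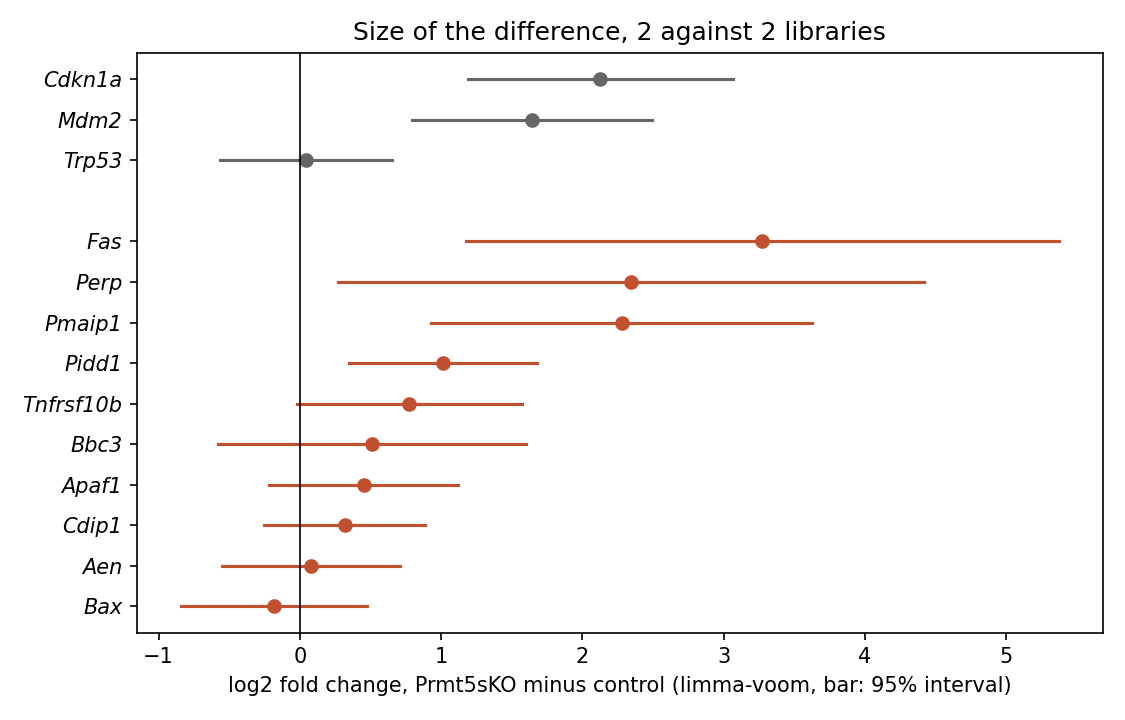
Log2 fold change (Prmt5sKO minus control, horizontal axis) of the 10 death genes, with Cdkn1a, Mdm2 and Trp53 in grey above them. Points are limma-voom estimates over 2 against 2 libraries and bars their 95% intervals, which lie wholly above 0 for Fas, Perp, Pmaip1 and Pidd1, and for Cdkn1a and Mdm2.

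Per length of transcript, the 10 genes spanned a wide range in control MuSC. In RPKM (reads scaled by exon length and library size, mean of the 2 control libraries), Bax stood highest with 72.7, followed by Aen with 18.6, Tnfrsf10b with 12.6, Pidd1 with 7.99, Apaf1 with 6.07, Bbc3 with 3.67, Pmaip1 with 3.49, Cdip1 with 3.32, Fas with 0.464 and Perp with 0.195. The control libraries overlapped between Pidd1 and Apaf1 and among Bbc3, Pmaip1 and Cdip1, so the order within these was not resolved. In Prmt5sKO MuSC the RPKM were 62.5 for Bax, 22.2 for Tnfrsf10b, 19.3 for Aen, 15.9 for Pidd1, 15.1 for Pmaip1, 8.46 for Apaf1, 5.51 for Bbc3, 4.72 for Fas, 4.11 for Cdip1 and 1.05 for Perp. Pmaip1 thus stood at the level of Bbc3 in control and at that of Pidd1 in Prmt5sKO MuSC, and Fas far below Cdip1 in the former and at its level in the latter. Of the neighbours in this order, the libraries of Tnfrsf10b and Aen, of Pidd1 and Pmaip1, of Apaf1 and Bbc3, of Bbc3 and Fas, and of Fas and Cdip1 overlapped, so their order was not resolved. The ratio of the highest to the lowest gene was 372 in control and 59.8 in Prmt5sKO MuSC. Genes at low control levels tended to have larger folds, with a Spearman correlation of -0.71 between log2 fold change and control RPKM over the 10 genes and of -0.22 over 16032 genes. This is a description, since the control level enters both quantities.

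The control libraries differed in the death genes. Of the 10, 8 were higher in the deeper control library, by a median log2 difference of 0.60, whereas the median over all tested genes was 0.02. In the Prmt5sKO group 6 of 10 were higher in the deeper library, by a median of 0.10. Only Perp and Cdip1 were higher in the shallower control library. Compared library by library, the deeper Prmt5sKO library exceeded the deeper control in 7 of the 10 genes and the shallower control in 10 of 10. The shallower Prmt5sKO library exceeded the deeper control in 8 and the shallower control in 10. The median log2 ratios of these 4 pairs were 0.74, 1.11, 0.58 and 0.93 in this order, against all-gene medians between 0 and 0.04. Without the shallower Prmt5sKO library, 7 of 10 genes had the remaining Prmt5sKO library above both controls, against 38.4% of all genes in that comparison. The median log2 fold change was then 0.92, and it was 0.66 without the deeper Prmt5sKO library. Myog was also higher in the deeper Prmt5sKO library, with 3707 normalized counts against 1436 and 1189 in control. Leaving out 1 library therefore cannot set differentiation apart, and its part was not tested.

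**Figure D3:**
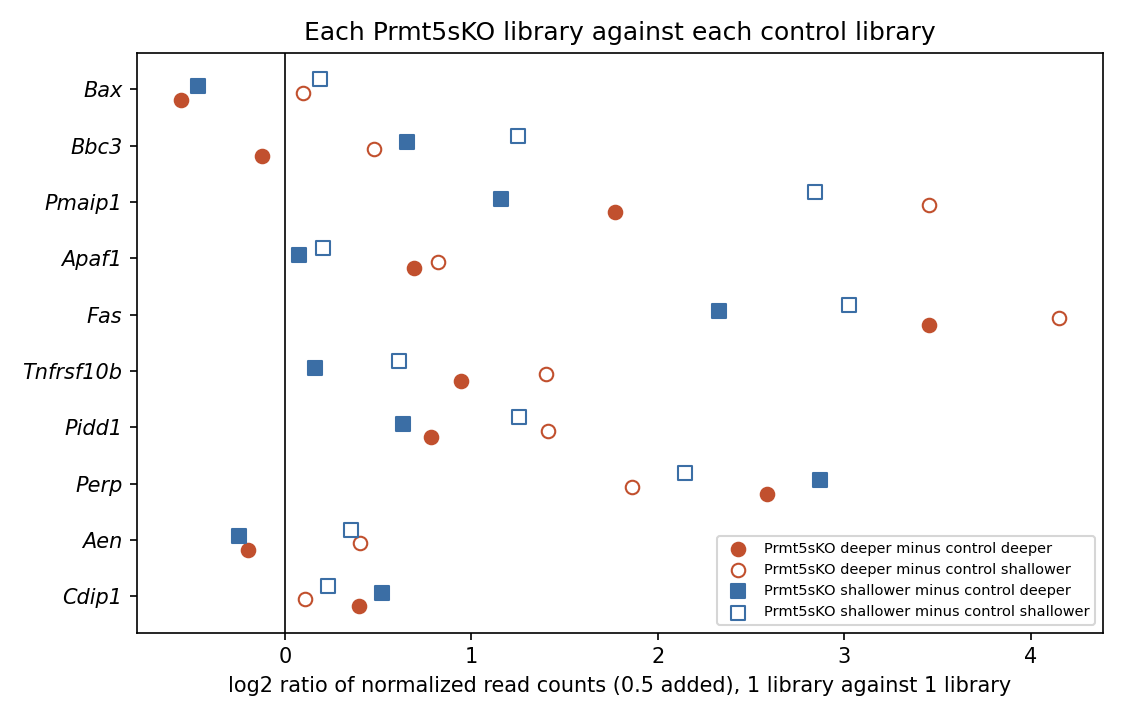
Log2 ratio of normalized counts (horizontal axis) of each Prmt5sKO library to each control library for the 10 genes, 4 points per gene. Fas, Perp and Pmaip1 lie beyond 1 in 4 of 4 pairs, while Bax and Aen lie below 0 against the deeper control and above 0 against the shallower control.

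Trp53 itself overlapped between the groups, with 3612 and 3146 normalized counts in control against 4159 and 2901 in Prmt5sKO MuSC and a log2 fold change of 0.04 (95% interval -0.57 to 0.65). The p53 targets Cdkn1a, the cell cycle inhibitor p21, and Mdm2, the ubiquitin ligase that restrains p53, were higher in both Prmt5sKO libraries. Cdkn1a had 3379 and 2057 against 8358 and 15703 normalized counts, and Mdm2 had 3457 and 2080 against 10628 and 6640. Their adjusted p were 0.214 and 0.236 in limma-voom.

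The other p53 genes and the partners of the death pathways were read from lists of known members, written with earlier results of these data known. Of 36 p53 targets for arrest and stress, 24 were higher in both Prmt5sKO libraries and 3 lower, against 25.2% and 23.6% of all genes. The median log2 fold change was 0.75. In limma-voom 13 had an unadjusted p under 0.05, all of them higher, against 6.01% of all genes higher at that level. Ercc5, a nuclease of excision repair, had a log2 fold change of 1.60 and Trp53inp1, a p53 cofactor, a value of 2.48. That of Eda2r, a receptor of the TNF family, was 1.78. Plk3, Trp53i11 and Tigar were the 3 with the opposite order. Of 11 genes of p53 and its feedback, 3 (Mdm2, Ccng1 and Rchy1) were higher in both Prmt5sKO libraries and Usp7 and Wrap53 lower, with a median of 0.15. These 3 of 11 stood against 25.2% of all genes, and the 2 lower ones against 23.6%.

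Over all genes, 25.2% were higher and 23.6% lower in both Prmt5sKO libraries, which is the background for the lists below. Of 15 other Bcl2 family genes, 4 were higher and 4 lower in this sense, and their log2 fold changes had a median of 0.12. Bmf, another BH3-only gene, had 29.4 and 11.7 normalized counts in control against 65.9 and 69.4 in Prmt5sKO MuSC, and Bnip3, a mitophagy gene, had 97.2 and 183 against 233 and 459. The protective Bcl2l1, named with Bak1 after their values were seen as the other genes of the higher order, had 1680 and 1462 against 2103 and 1920, and Bak1, a pore former like Bax, had 817 and 713 against 929 and 867. The protective Bcl2 had 175 and 167 against 106 and 118, and Bcl2l12, Bok and Bid had the same order as Bcl2. Of 20 genes for caspases, the apoptosome and their inhibitors, 6 were higher and 6 lower, with a median of 0.01. Among the former were Casp12, with 19.2 and 9.08 against 58.5 and 124 normalized counts, and Dffb, the caspase-activated nuclease, with 81.4 and 88.2 against 271 and 171. Birc5 (survivin), which is also a mitosis gene, had 1288 and 1249 against 655 and 660, and the inhibitor Birc2 had 258 and 235 against 395 and 383. Htra2, Casp2, Birc6, Casp8 and Cradd were, with Birc5, the 6 in the lower order. Of 14 death receptor partners, 5 were higher and 4 lower, with a median of 0.39. Tnfrsf23, a decoy receptor for Trail, had 232 and 140 against 389 and 411 normalized counts, and Tnfrsf26, of the same receptor family, had 0 and 1 reads against 26 and 11. Faim, an inhibitor of Fas-induced death, had 327 and 252 against 154 and 188, and Tnfrsf1b, Tnfrsf21 and the adaptor Fadd shared that order. No gene of these lists passed the adjusted p of 0.05 in limma-voom. At an unadjusted p under 0.05 there, the arrest list had 13 genes higher and 0 lower, and the feedback list 3 and 1. The Bcl2 list had 1 and 0, the caspase list 3 and 1, and the receptor list 2 and 1. Over all genes, 6.01% were higher and 6.95% lower at that level. Fasl and Tnfsf10, the ligands of the receptors above, were listed but matched no row of the deposited expression table by symbol.

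**Figure D4:**
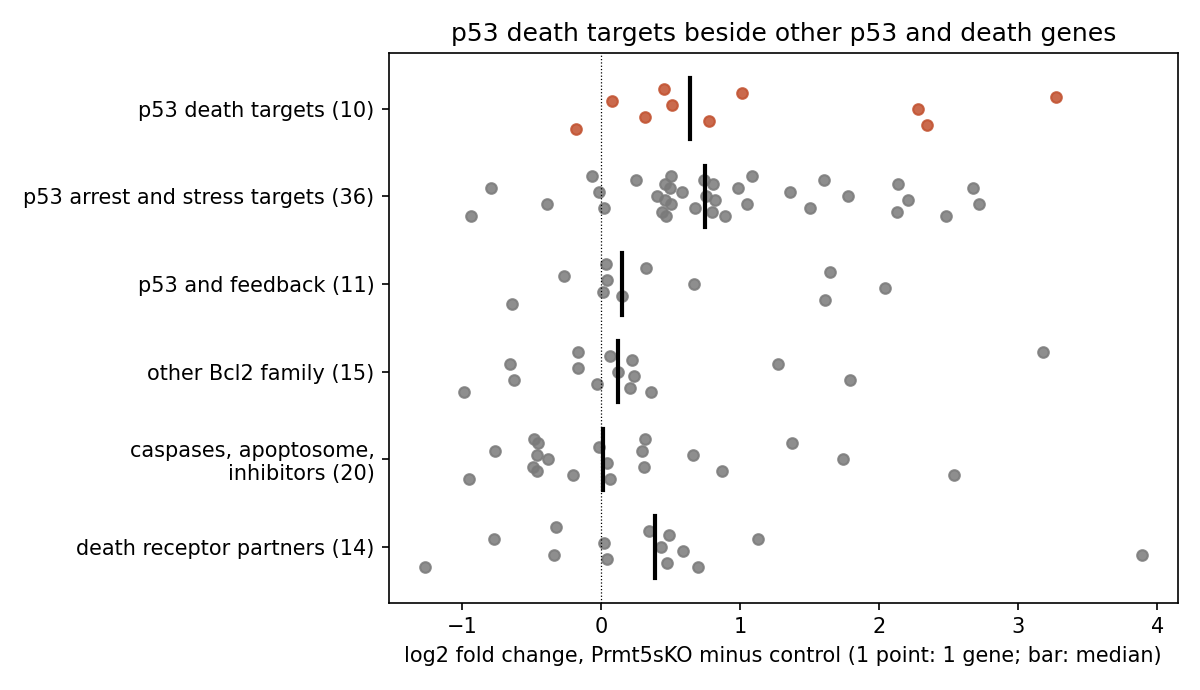
Log2 fold change (Prmt5sKO minus control) of the genes of 6 lists, 1 point per tested gene, black bars at the list medians and the number of tested genes in brackets. The medians are 0.64 for the death targets, 0.75 for the arrest and stress targets, 0.15 for p53 and feedback, 0.12 for the other Bcl2 family, 0.01 for caspases and 0.39 for death receptor partners.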

How the data were processed

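RNA of cultured MuSC (2 control and 2 Prmt5sKO libraries) was sequenced on the Ion Torrent Proton after ribosomal depletion. Per the labels the processing named STAR 2.4.0a, DESeq2 1.62 and the genome mm10/GRCm38. The authors deposited, for 20065 genes, signal values that are the averages of counts divided by size factors, 1 per group and 1 over the 4 libraries, so replicates were averaged before deposit. The table also holds 4 columns of the authors' own comparison (log2 fold change, its error, p and adjusted p), which were not used. Each group mean combines whole reads of 2 libraries with 1 weight each, so the reads per library could be solved for, with 1 solution for 20065 of 20065 genes in both groups. These gave 14436914 and 13240754 reads in the control and 20047430 and 16190414 in the Prmt5sKO libraries. They carry no replicate numbers. Symbols and coordinates came from GENCODE M21 (19782 of 20065 identifiers matched).

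Counts were scaled by TMM (own code, trims of 30% and 5%), genes averaging under 5 normalized counts were dropped, and limma-voom (limma 3.58.1, R 4.3.3) compared the groups, with Benjamini-Hochberg adjustment. Calls needed an adjusted p no higher than 0.05 and a 2-fold difference. The code of the fit was checked on simulated counts with known changes. The simulated libraries of a group did not differ as the real ones did in Xist or Myog. That check therefore does not show how well the fit finds changes in these libraries. Alternatives were other scalings, filters, limma-trend, each library left out and both pairings of libraries. The genes named are the 10 members, Prmt5, Cdkn1a, Mdm2, Trp53, Myog and Xist, and of each list up to 4 genes with the smallest p and those of the opposite order. The members and lists were chosen with earlier results of these data known.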

Additional observations from a re-analysis of the deposited data

How the results depend on the processing

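No setting brought 1 of the 10 genes to an adjusted p of 0.05, and the closest was Fas with 0.0648 when the deeper library of each group was paired with the shallower library of the other. That pairing called 346 of all tested genes, and pairing the deeper libraries called 0. The numbers of the labels could not be tied to the libraries, and the fit without a block was kept as the main one. Within-group differences correlated at -0.30 when the deeper libraries were paired. The sign turns when deeper is paired with shallower, so this value gives no reason against that block. The pairing of deeper with shallower libraries joins those alike in Xist and Y-linked RNA. The main fit has no term for that difference and leaves it in the spread within groups.

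Leaving out 1 library moved the count of all genes called between 0 and 489, with 489 without the deeper and 55 without the shallower Prmt5sKO library. In the same fits the median log2 fold change of the 10 genes ran from 0.51 to 0.92. The genes with Prmt5sKO libraries above the controls numbered from 7 to 10, while the share of all genes was 35.9% to 39.6%, against 25.2% with 4 libraries. A lone library is assumed there to vary like the other group. In these fits the log2 fold change of Bax ran from -0.50 to 0.13, positive without the deeper control library, and that of Aen from -0.21, without the shallower control library, to 0.37. In the other scalings, filters and limma-trend fits, the unadjusted count ran from 3 to 5, the separated genes from 6 to 8 and the median from 0.51 to 0.76, where scaling by library size alone also moved the median of all genes to 0.13. The genes at a fold of at least 2 numbered from 2 to 5 over all settings, against 4.86% to 16.6% of all genes. The count of 2 came in limma-trend with a pseudocount of 2, where the share was 4.86%. The cause of these shifts was not tested. The deposited columns are means and did not pass as whole reads on a single step, so limma was chosen for the tests. edgeR and DESeq2 were not run on the recovered whole reads. Whether they would call any of the 10 genes was therefore not tested. With 2 libraries per group, folds of rare genes such as Perp rest on few reads.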
